A study of Mus musculus with 2 samples.

Results

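The Wnt ligands, their Frizzled receptors and the Sfrp and Dkk families of secreted inhibitors were described here in mouse embryonic stem (ES) cells. The members were every probe set, a group of probes summarised to 1 value, whose only gene symbol was a numbered Wnt, Fzd, Sfrp or Dkk name. This selected 73 of 45101 probe sets and 37 of 18194 named genes, made up of 19 Wnt, 10 Fzd, 4 Sfrp and 4 Dkk genes. The samples were 2 Affymetrix arrays, replicates 1 and 2 of 1 group: an ES cell line of genotype Del1.3MbWBS, which lacks 1.3 Mb of the region tied to Williams-Beuren syndrome (WBS). In people this syndrome follows from the loss of a stretch of neighbouring genes, and Fzd9 belongs to the corresponding segment in the mouse. The cells of both arrays grew with leukaemia inhibitory factor and 20% serum replacement on feeder cells, and a line without the deletion was not analysed here. The labels call the arrays biological replicates without naming separate cultures, so their spread may be partly technical.

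Wnt proteins are lipid-modified secreted signals that bind Frizzled receptors at the cell surface together with Lrp5 or Lrp6. On the canonical branch this stops the destruction of beta-catenin, which then acts in the nucleus with Tcf/Lef factors; other branches act through Ror and Ryk receptors or through planar cell polarity. Sfrp proteins carry a Frizzled-like domain and bind Wnts, whereas Dkk proteins act on Lrp5 and Lrp6. In mouse ES cells, canonical signalling is known to favour self-renewal by relieving repression by Tcf7l1.

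All 10 Frizzled genes and all 4 Sfrp genes were above background, against 11 of 19 Wnt genes and 2 of 4 Dkk genes. A gene was counted as above background when the brightest of its probe sets exceeded the 95th percentile of 39 olfactory receptor genes, on the mean (5.59) and on each array (5.60 on replicate 1 and 5.58 on replicate 2). All values are log2 values, given for replicate 1 and then replicate 2, or as mean ± SD (n = 2). Together 27 of the 37 genes (73.0%) were above background, where 68.4% of all genes were, so the share over the 4 families together was near that of the array. The share for Wnt genes alone was 57.9%. Since probes differ in affinity, levels were not ranked between genes. Without a second group there is no test between conditions, and no p-value is given.

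**Figure D1:**
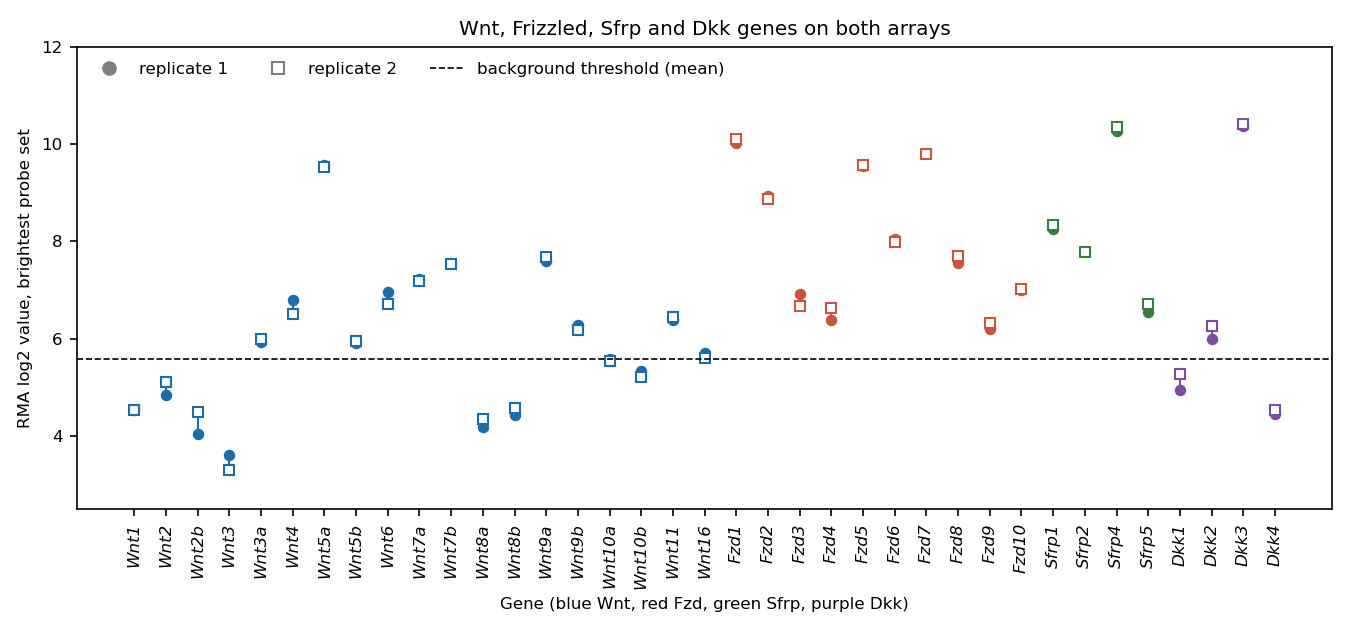
RMA log2 values of the brightest probe set (vertical axis) of each of the 37 genes (horizontal axis), with filled circles for replicate 1, open squares for replicate 2 and the mean threshold of 5.59 as a dashed line. All Fzd and Sfrp genes lie above the line, 8 Wnt and 2 Dkk genes do not, and Wnt10a and Wnt16 lie close to it.

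Markers of several cell types were measured on the same arrays, at a threshold that 68.4% of all genes passed. All 8 pluripotency markers were above background, with means from 6.32 for Dppa3 to 12.63 ± 0.020 for Pou5f1, and Nanog at 12.11 ± 0.063. So were all 12 fibroblast markers, whose means ran from 8.92 for Twist1 to 14.87 for Col1a2, and all 4 smooth muscle markers. Of the blood markers, Csf1r and Cd3e were above background, while the pan-leukocyte gene Ptprc (4.05 ± 0.13) and Itgam (3.92 ± 0.077) were not, so a marker above background does not by itself show that its cell type was present. In each of the endoderm, mesoderm and neuroectoderm lists 2 of 4 genes were above background. Which cells a Wnt pathway transcript came from was not tested, and in such bulk RNA fewer cells of a type and less RNA per cell cannot be told apart.

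The promoters of the members differed widely in CpG content, a measure that the selection did not use. CpG-dense promoters are typical of housekeeping genes and of many developmental regulators. The RefSeq promoter table (GRCm38.p6) held 25 of the 37 genes, and the 250 bases before each annotated start were read. A gene with several starts was represented by its window with the most CpG. The median was 30 CpG per window in the 18 members above background and 20 in the 7 that were not, with a range from 5 in Wnt8b to 48 in Wnt9a. Over all measured genes with an entry, the medians were 17 in 10019 genes above background and 5 in 4434 that were not. Windows of 5 members are shown, chosen after their values were seen, with every CpG in capitals: Fzd9 for its place in the WBS segment (42 CpG), Fzd7 (17) and Wnt4 (44) as members above background, and Wnt8b (5) and Dkk1 (6) as members that were not.
Fzd9 (chr5:135251048-135251297, minus strand): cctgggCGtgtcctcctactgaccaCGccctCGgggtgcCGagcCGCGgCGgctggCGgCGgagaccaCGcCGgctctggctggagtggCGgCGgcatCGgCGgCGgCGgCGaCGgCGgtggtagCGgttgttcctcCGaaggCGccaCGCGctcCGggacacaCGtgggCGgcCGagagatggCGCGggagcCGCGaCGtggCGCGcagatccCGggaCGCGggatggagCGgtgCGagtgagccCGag
Fzd7 (chr1:59481897-59482146, plus strand): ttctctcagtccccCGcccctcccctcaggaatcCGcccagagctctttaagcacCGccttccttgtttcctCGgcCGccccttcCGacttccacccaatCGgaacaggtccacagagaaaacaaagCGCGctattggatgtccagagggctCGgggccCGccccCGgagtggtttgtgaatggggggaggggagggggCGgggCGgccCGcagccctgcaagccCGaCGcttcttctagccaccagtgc
Wnt4 (chr4:137277385-137277634, plus strand): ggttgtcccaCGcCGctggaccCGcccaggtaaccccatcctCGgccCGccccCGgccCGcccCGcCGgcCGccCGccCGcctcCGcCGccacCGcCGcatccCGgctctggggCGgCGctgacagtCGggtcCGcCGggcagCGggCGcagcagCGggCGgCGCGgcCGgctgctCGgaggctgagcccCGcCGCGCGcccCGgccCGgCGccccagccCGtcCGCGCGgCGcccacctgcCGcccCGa
Wnt8b (chr19:44493222-44493471, plus strand): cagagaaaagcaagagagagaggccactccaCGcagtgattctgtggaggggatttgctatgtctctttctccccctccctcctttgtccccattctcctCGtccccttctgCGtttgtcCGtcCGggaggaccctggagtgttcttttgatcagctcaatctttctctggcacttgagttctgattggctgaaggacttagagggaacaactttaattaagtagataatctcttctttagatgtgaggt
Dkk1 (chr19:30549497-30549746, minus strand): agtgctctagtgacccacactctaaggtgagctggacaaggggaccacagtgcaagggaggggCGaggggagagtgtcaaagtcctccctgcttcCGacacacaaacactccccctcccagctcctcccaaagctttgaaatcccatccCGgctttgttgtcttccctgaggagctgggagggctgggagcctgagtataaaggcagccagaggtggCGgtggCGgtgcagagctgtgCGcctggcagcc
The capitals are dense throughout the Fzd9 and Wnt4 windows and sparse in those of Wnt8b and Dkk1. Low CpG content was not tied to a low array value in every member: Dkk2 had 7 CpG and was above background, and Wnt2b had 36 and was not.

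Tcf/Lef factors, the nuclear end of the canonical branch, bind strings such as CTTTGAT and CTTTGTT. On either strand (ATCAAAG and AACAAAG), 1 of these 4 strings stood in a window of 4 of the 25 members, namely Fzd7, Dkk1, Wnt5b and Wnt11, and in 7.68% of all measured genes with an entry. Counted by window, the shares were 4 of 28 for the members and 6.61% of 18110 windows. The strings of Fzd7 and Dkk1 began 130 and 98 bases before the start and are shown in capitals.
Fzd7 (chr1:59482007-59482033, plus strand): ccacagagaaAACAAAGcgcgctattg
Dkk1 (chr19:30549578-30549604, minus strand): cccatcccggCTTTGTTgtcttccctg
A match of letters is a description of the window and not a measured binding site. Of the 4 genes, Fzd7, Wnt5b and Wnt11 were above background and Dkk1 was not.

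Among the Frizzled receptors, the gene for Fzd7, a receptor well known in pluripotent cells, gave 9.83 and 9.80. Its close relatives Fzd1 and Fzd2 gave 10.03 and 10.11, and 8.94 and 8.87. On the brightest probe sets, the arrays thus matched to within 0.085 log2 units for each gene of this subfamily. All 6 of these values lay more than 3 log2 units above the threshold. The other probe set of Fzd1 gave 5.60 and 5.81, and that of Fzd7 was not above background, at 4.95 and 5.03. The other probe sets of Fzd2 were above background. Fzd5 gave 9.56 and 9.57. Fzd8, which belongs to the same subfamily as Fzd5, gave 7.56 and 7.69. Both genes were above background on both arrays.

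Fzd3 and Fzd6 form a subfamily known for its part in planar cell polarity. Fzd3 gave 6.92 and 6.67 and was higher on replicate 1 by 0.25 log2 units. Fzd6 gave 8.05 and 7.98. Fzd4, which also binds the unrelated ligand Norrin, gave 6.37 and 6.62, higher on replicate 2 by 0.25 log2 units. Fzd10 gave 6.99 and 7.03. On the brightest probe sets, the differences in Fzd3 and Fzd4 ran in opposite directions and were the largest of the 10 receptors. Neither brought a value near the threshold. The direction was not shared by every probe set of Fzd3. Its other probe sets above background differed by 0.17, 0.42 and -0.070 log2 units, replicate 2 minus replicate 1.

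Fzd9, the Frizzled gene of the WBS segment, gave 6.21 and 6.32, a mean of 6.26 ± 0.080. That was 0.67 log2 units above the threshold, and it rests on a single probe set. The gene stayed above background with each alternative threshold and with each array alone. In the reference gene order Fzd9 stands between Baz1b (9.82 ± 0.022) and Fkbp6. From the labels alone, the genes removed by the deletion and the number of copies left are unknown, so the Fzd9 value cannot be read as reduced or retained.

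On their brightest probe sets all 4 Sfrp inhibitors were above background, where 68.4% of all genes were. Of their 9 probe sets 7 were above background, where 61.8% of probe sets with 1 gene symbol were. The exceptions were a probe set of Sfrp1 with a mean of 4.80 and another of Sfrp5 with a mean of 5.46. Sfrp4 gave 10.27 and 10.34, and Sfrp1 gave 8.26 and 8.35. Sfrp2, an inhibitor often made by mesenchymal cells, gave 7.80 and 7.78. Sfrp5 gave 6.54 and 6.71, about 1 log2 unit above the threshold. On the same arrays all 8 pluripotency, all 12 fibroblast and all 4 smooth muscle markers were above background too. So were 2 of 4 genes in each of the endoderm, mesoderm, neuroectoderm and blood lists. The source of the Sfrp transcripts was not tested. Frzb, an Sfrp relative outside the numbered names, was also above background at 6.90 ± 0.21.

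The Dkk family was split. Dkk3, a divergent member not known to act on Lrp5 or Lrp6 as the others do, gave 10.38 and 10.43. Dkk2 gave 6.00 and 6.27, and its mean of 6.13 ± 0.19 stood 0.54 log2 units above the threshold. Dkk1, a classical inhibitor that canonical signalling itself can induce, gave 4.95 and 5.27 and was not above background. Dkk4 was not either, at 4.45 and 4.52. On their brightest probe sets all 4 genes read higher on replicate 2, by 0.042 to 0.32 log2 units. The other probe set of Dkk1 also read higher there, by 0.053, but that of Dkk3 read lower, by 0.066 log2 units. With vomeronasal and taste receptors as the reference, which raised the threshold to 6.08, the Dkk count fell from 2 to 1, since Dkk2 no longer passed on both arrays.

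Of the Wnt ligands, Wnt5a, a ligand of non-canonical signalling made by many mesenchymal tissues, gave 9.57 and 9.53. Wnt9a gave 7.59 and 7.69, Wnt7b gave 7.55 and 7.53, and Wnt7a, known for limb patterning, gave 7.23 and 7.18. On their brightest probe sets these 4 genes differed by at most 0.098 log2 units between the arrays. Each also had a probe set, not above background, that differed more. Replicate 2 minus replicate 1, these differences ran from -0.13 in Wnt9a to -0.22 log2 units in Wnt7b. Wnt6 gave 6.96 and 6.70, and Wnt4, which acts in kidney and gonad development, gave 6.80 and 6.51. On their brightest probe sets both were higher on replicate 1, by 0.26 and 0.29 log2 units, and stayed above the threshold on each array. The other probe set of each gene, not above background, read higher on replicate 2, by 0.45 and 0.13 log2 units. Wnt11, a ligand of cell movements at gastrulation, gave 6.38 and 6.44. Wnt9b, needed in kidney development, gave 6.29 and 6.18.

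The other 3 ligand genes above background lay within 0.5 log2 units of the threshold. Wnt3a, a canonical ligand of the primitive streak, gave 5.94 and 5.99. Wnt5b gave 5.91 and 5.96, on a probe set marked as shared between transcripts or genes. Wnt16 gave 5.69 and 5.60, and its mean of 5.65 ± 0.067 stood 0.057 log2 units above the threshold, less than its SD. Wnt16 was not above background at the 99th percentile of the reference genes (5.66). With vomeronasal and taste receptors as the reference, Wnt3a, Wnt5b and Wnt16 all failed and the Wnt count was 8 of 19.

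The 8 ligand genes that were not above background were Wnt1, Wnt2, Wnt2b, Wnt3, Wnt8a, Wnt8b, Wnt10a and Wnt10b. Wnt10a, at 5.58 and 5.54, missed the mean threshold by 0.032 log2 units. At the 90th percentile of the reference genes (5.07) both Wnt10a and Wnt10b (5.33 and 5.21) passed. Wnt2 gave 4.83 and 5.11. Wnt2b gave 4.04 and 4.48, a difference of 0.44 log2 units, at a level below background. It was the largest of the 37 genes on their brightest probe sets. Wnt8a gave 4.17 and 4.35, and Wnt8b gave 4.43 and 4.58. Wnt3, like Wnt3a a ligand of early gastrulation, gave 3.60 and 3.29 on a single probe set marked as shared. Wnt1, a ligand of the midbrain, gave 4.52 on both arrays, identical to the deposited digits, as in 47 of the 45101 probe sets.

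Several Wnt genes lie side by side in the genome. In the reference order of protein-coding genes there were 4 adjacent pairs of members, of which 2 had unlike calls; of all 14185 adjacent pairs of measured genes, 33.5% did, and with 4 pairs nothing particular to the members can be read from this. Wnt3a and Wnt9a were both above background, and Wnt1 and Wnt10b were both not. Wnt9b (6.24 ± 0.076) was above background and its neighbour Wnt3 (3.44 ± 0.22) was not. Wnt6 (6.83 ± 0.18) was above and Wnt10a (5.56 ± 0.027) was not, a split that ended with the median of all probe sets, with unshared probe sets and at the 90th percentile, where Wnt10a passed.

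How many probe sets a gene has moved with its call. Of the 10 Wnt genes with 1 probe set 3 were above background, and of the 9 with several, 8 were. Over all genes the shares were 53.4% with 1 probe set and 83.6% with several. The Frizzled genes had 2.60 probe sets each on average, the Wnt genes 1.68, all genes 1.92 and the olfactory receptor reference 1.13. Among Frizzled genes, 9 of 10 had several. The part of probe set number in the counts was not tested.

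Probe sets of 1 gene often disagreed. Of all 73 member probe sets 41 were above background (56.2%), where 61.8% of probe sets with 1 gene symbol were. By family the counts were 13 of 32 for Wnt (40.6%), 18 of 26 for Fzd (69.2%), 7 of 9 for Sfrp and 3 of 6 for Dkk. Of the 22 members with several probe sets, 4 had all of them above background (Fzd1, Fzd2, Fzd5 and Dkk3), 2 had none (Wnt8b and Dkk1) and 16 had some above and some not. Over all genes with several probe sets, 43.5% were mixed in this way. The range between the brightest and dimmest probe set of a gene had a median of 2.62 log2 units in the members and 2.18 in all genes.

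The widest range of a member was that of Fzd7, whose brighter probe set read 9.83 and 9.80 while the other, assigned to the same RefSeq accession, read 4.95 and 5.03. Both arrays gave the same order. Wnt5a had means of 9.55, 8.41, 7.06 and 4.93 over its 4 probe sets. Fzd1 had 10.07 and 5.71. Fzd3 had the most probe sets of any member, 6, of which 4 were above background, with means from 3.27 to 6.80. Sfrp1 had 4 of 5 above background. A single value per gene therefore stands for its brightest probe set and not for every transcript of the gene. With the median of all probe sets in its place, all 22 genes with several probe sets moved by more than their SD, the farthest of them fell by 2.55 log2 units, and 12 Wnt, 10 Frizzled, 4 Sfrp and 2 Dkk genes were above a threshold made the same way (5.28), as were 66.9% of all genes. The Wnt gene added at that setting was Wnt10a.

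**Figure D2:**
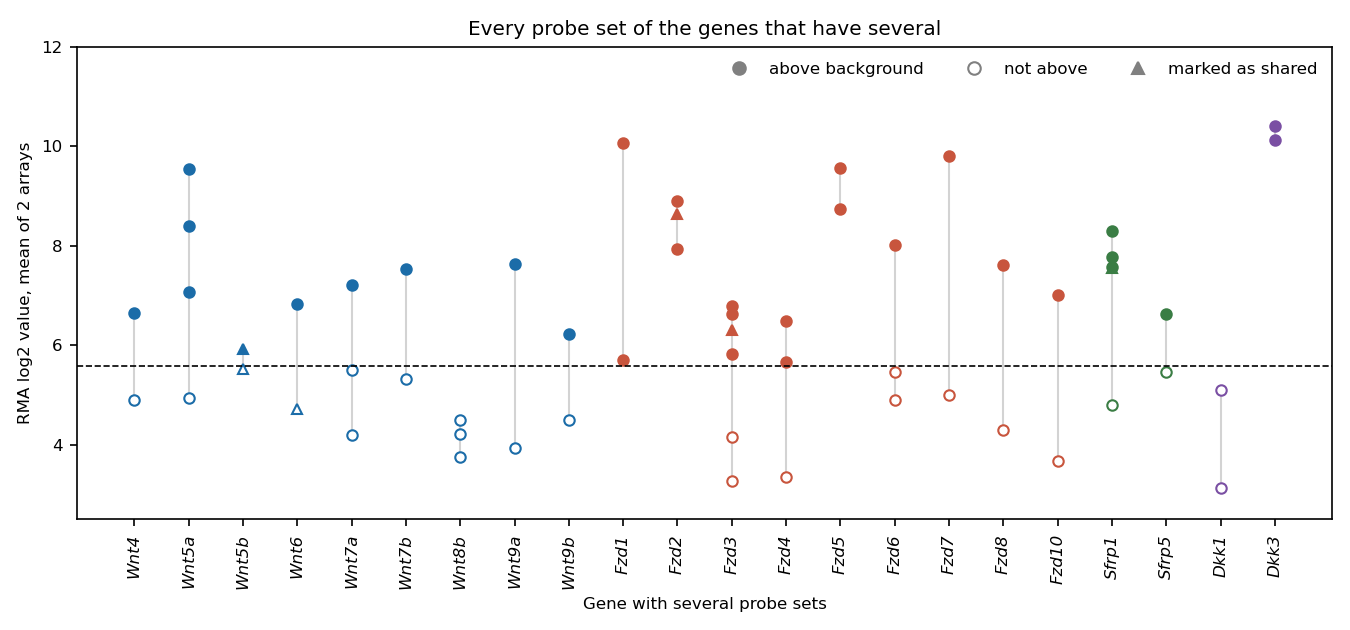
Mean RMA log2 value over the 2 arrays (vertical axis) of every probe set of the 22 genes with several (horizontal axis); filled symbols are above background, open symbols are not, triangles are probe sets marked as shared, and the dashed line is the mean threshold of 5.59. Fzd7, Wnt5a and Fzd1 span more than 4 log2 units, and Dkk3 spans 0.28.

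Differences between the replicates were small for the members, as for the array as a whole. Of the 27 members that exceeded the threshold of at least 1 array, 0 differed by 1.5-fold or more; over all 12769 such genes 10 did (0.0783%), 6 higher on replicate 2 (0.047%) and 4 higher on replicate 1 (0.0313%). Of the 73 member probe sets 0 did, where 55 of 34958 probe sets with 1 gene symbol did (0.157%). At shares this small, counts of 0 say nothing particular about the members. The difference had an SD of 0.137 log2 units over the 27 members and 0.114 over all genes. Split by level, it was 0.195 for the 12 members with a mean under 7 and 0.173 for all genes in that range, and 0.0667 for the 15 members with a mean of 7 or higher and 0.0833 for all genes there. Replicate 2 was the higher array for 15 of the 27 members and for 7249 of the 12769 genes. On the brightest probe sets, the extreme differences among these members were those of Wnt4, lower on replicate 2 by 0.29, and Dkk2, higher by 0.27 log2 units.

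**Figure D3:**
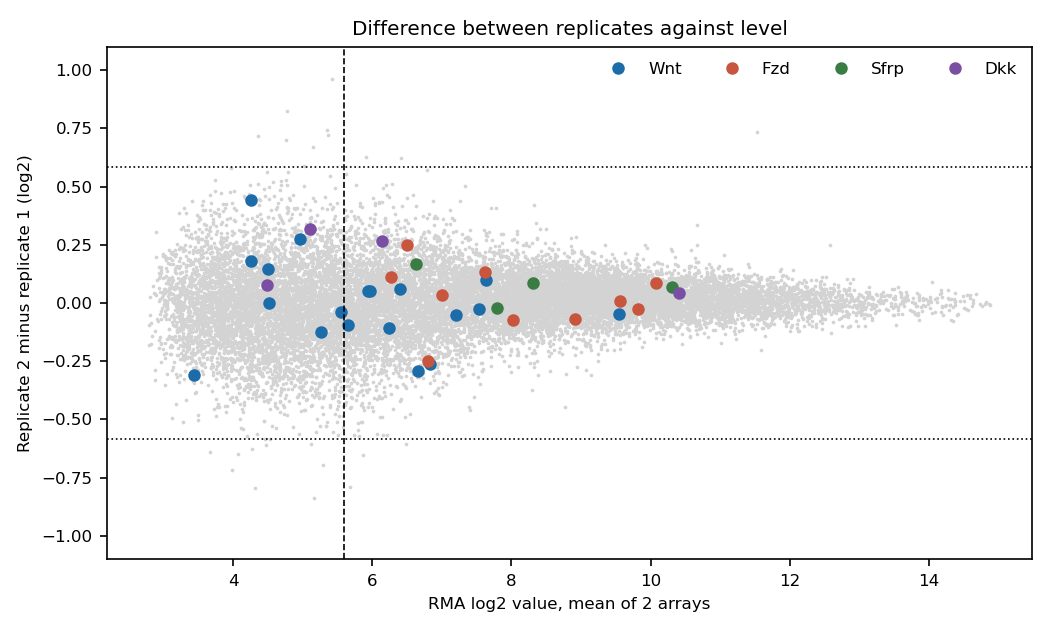
Replicate 2 minus replicate 1 (log2, vertical axis) against the mean of both arrays (log2, horizontal axis) for all 18194 genes in grey and the 37 members in colour, with dotted lines at 1.5-fold and a dashed line at the mean threshold. No member lies beyond the dotted lines, and the members with means of 7 or higher differ by at most 0.134 log2 units.

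The genes that act with the members were taken from 8 lists of pathway roles, chosen with earlier results of these data known. How far the number of probe sets per gene entered their counts was not tested. Of the 64 measured genes 52 (81.3%) were above background, against 68.4% of all genes and 83.6% of all genes with several probe sets. Of the co-receptors 5 of 6 were: Lrp6 at 8.84 ± 0.023, the tyrosine kinase relatives Ryk at 10.19 ± 0.026, Ror1 at 6.71 ± 0.026 and Ror2, a receptor for Wnt5a, at 7.65 ± 0.097. Lrp5, the other classical co-receptor, was not, at 5.40 ± 0.091. All 3 genes of Wnt release and removal were above background. These were Porcn, which attaches the lipid, at 7.61 ± 0.14, the carrier Wls at 11.36 ± 0.037, and Notum, which removes the lipid, at 7.25 ± 0.019.

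R-spondins raise the number of Frizzled receptors at the surface by removing the ligases Znrf3 and Rnf43 through Lgr receptors. Of these 9 genes 5 were above background, where 68.4% of all genes were. Rspo2 gave 11.43 and 11.40, Rspo3 gave 10.60 and 10.65, Lgr4 was at 9.67 ± 0.0014 and Lgr6 at 5.85 ± 0.11, and Znrf3 also passed. Rspo1 (4.83 ± 0.26), Rspo4 (4.85 ± 0.048), Lgr5 and the other ligase gene Rnf43 were not above background. Of the R-spondin genes themselves, 2 were thus above background and 2 were below the threshold on both arrays. Of 8 measured further inhibitors 3 were above background, namely Frzb, Kremen1, a partner of Dkk proteins (8.63 ± 0.036), and Apcdd1 (8.53 ± 0.088). Wif1, which binds Wnts directly (3.61 ± 0.077), and Cer1 (4.89 ± 0.12) were among the 5 that were not.

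All 13 cytoplasmic genes were above background, where 68.4% of all genes and 83.6% of all genes with several probe sets were. Among the 13 were the Dishevelled genes Dvl1 at 10.48 ± 0.0076, Dvl2 at 7.60 ± 0.040 and Dvl3 close to the threshold at 5.66 ± 0.075. The scaffold gene Axin1 was at 8.71 ± 0.036. Of 11 measured nuclear genes 10 were, among them Tcf7l1, the repressor of naive cell genes (9.54 ± 0.077), Tcf7l2 (7.37 ± 0.10), Lef1 (7.66 ± 0.040) and Bcl9 (6.20 ± 0.045). Pygo1 was not, at 4.41 ± 0.11. Genes known as targets of beta-catenin were above background in 9 of 10 cases, with Axin2 at 7.98 ± 0.059, Nkd1 at 6.13 ± 0.0092, Nkd2 at 7.46 ± 0.13 and Sp5 at 6.67 ± 0.097, while Lgr5 was not (5.25 ± 0.17). Of these targets, Axin2, Lef1, Lgr5 and Notum were also counted in another list, and the total of 64 counts each gene once. These levels are of total RNA from 1 condition and do not measure signalling. In planar polarity 7 of 8 were, with Vangl1 at 8.15 ± 0.048, Vangl2 at 7.90 ± 0.053, Celsr2 at 6.12 ± 0.062 and Celsr3 at 6.23 ± 0.14, but not Celsr1 (5.41 ± 0.060).

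**Figure D4:**
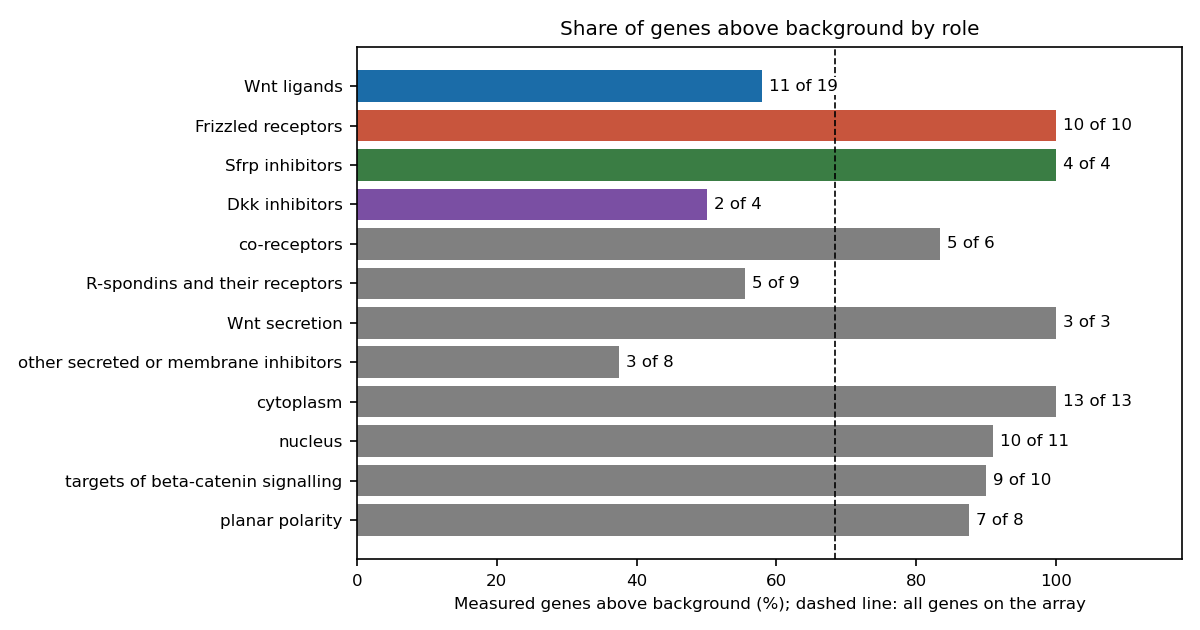
Share of measured genes above background in percent (horizontal axis) for the 4 families (coloured bars) and for 8 lists of other pathway genes (grey bars), with the counts printed beside each bar and the share of all genes, 68.4%, as a dashed line. Wnt ligands, Dkk inhibitors, R-spondins with their receptors, and the other inhibitors lie below the line.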

How the data were processed

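Total RNA of both arrays was labelled from 6 µg, per the labels' protocols. Each deposited value is a log2 level of 1 probe set, which the authors computed by RMA, a robust average over probes, per the submitters' processing notes. The RMA version and the set of arrays normalized jointly are not stated in the labels. RMA corrects background, equalizes the arrays' distributions and summarises probes, so a shift common to most genes would not be seen, and it gives no detection call. The array medians were 6.01 and 6.01. Arrays have no read depth; their number, 2, limits the precision.

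Probe sets were named through GEO's platform annotation, and 34958 had 1 symbol. Gene identifiers of all 37 members matched the mouse reference table, with 0 symbols changed. The brightest probe set by mean stood for a gene. Differences are replicate 2 minus replicate 1. All members were named. Of each pathway list, values are given for the first 4 genes above background and the first 2 not above. The members and lists were chosen with earlier results of these data known. Kremen2, Tcf7 and T had no probe set of their own here. Columns left unused numbered 0. Alternatives were the median of probe sets, unshared probe sets (without _a_at, _s_at and _x_at), the 90th and 99th percentiles, other reference receptors, each array alone, centring, no filter, loess (fraction 0.3) and 1 log2 unit. The rules were tested on simulated data, with silent genes drawn from the olfactory receptor values and expressed genes set well above the threshold. Such data could not test calls close to the threshold. Python 3.11.15, numpy 2.4.6, pandas 2.3.3 and statsmodels 0.14.6 were used.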

Additional observations from a re-analysis of the deposited data

How the results depend on the processing

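Of 66 alternative values of the counts and SDs, 65 stayed within 1.5 times the reported value. This is a loose measure, which a Wnt count of 8 in place of 11 also met. Many values had little or no room to leave it. Counts of 10 of 10 Frizzled and 4 of 4 Sfrp genes could not rise. A count of 0 at 1.5-fold fixed that at 1 log2 unit, and centring acted on arrays with medians of 6.01 and 6.01. The value outside the measure was the Dkk count, which fell from 2 to 1 with vomeronasal and taste receptors as the reference. The higher threshold of 6.08 lies between the Dkk2 values of 6.00 and 6.27. The count of members above background was 27 and ranged from 23 with that reference to 29 at the 90th percentile, where the share of all genes was 61.5% and 74.8%. Each array alone gave 27 members, with no change in which genes passed, and 41 to 42 member probe sets. With unshared probe sets, 27 of the 34 members still measured were above background, since Wnt3, Wnt5b and Wnt10b had shared probe sets alone and Wnt10a passed the lower threshold of 5.28. The pathway count of 52 ranged from 46 to 56. No member differed by 1.5-fold between replicates with the median of probe sets, unshared probe sets, centring, loess or no filter. The SD of the difference, 0.137, ranged from 0.130 to 0.166. No paired analysis was possible because there is only 1 group. Silent and weakly expressed members cannot be separated near the threshold: 6 of the 37 lay within 0.5 log2 units of it.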
